A study of Mus musculus with 15 samples.

Results

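The experiment described here set pressure overload against sham surgery in wild-type (WT) mouse hearts. It was chosen as the comparison of the 4 WT TAC hearts with the 4 WT sham hearts, which are 8 of the 15 hearts of the series. The 8 hearts came from male WT mice, littermates of SIRT5 overexpressing (SIRT5OE) mice, aged 4 to 8 months at surgery. The WT TAC hearts had transverse aortic constriction (TAC), a suture tied around the aortic arch against a needle that narrows the vessel and makes the left ventricle pump against a higher pressure. The WT sham hearts had the operation without the constriction. All were taken 4 weeks later, each heart from 1 mouse. The study describes RNA from whole hearts that were pulverized, so atria, valves, vessels and blood may be in the same tube as ventricle. The other 7 hearts, 4 SIRT5OE TAC and 3 SIRT5OE sham, came from littermates with a Sirt5 transgene that is driven by a ubiquitous promoter in every tissue. Their values are described only in 1 comparison near the end of the Results. They also took part in the gene filter and in the estimate of spread behind the p-values of single genes. The surgeries were done in batches, and the labels do not say which heart was in which batch, so no value within a batch could be given.

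Pressure overload is the standard mouse model of hypertrophic heart failure. Loaded cardiomyocytes grow, make natriuretic peptides and go back to contractile isoforms of the fetal heart, while the adult programme that burns fatty acids in mitochondria and cycles calcium loses expression. Fibroblasts turn into matrix-secreting cells that lay down collagen, and macrophages, complement and cytokines accompany the remodelling.

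The deposited table held 36727 genes in units of normalized counts, which are transcript-based count estimates scaled between hearts by size factors, so the number of reads sequenced per heart is not known from it. The normalized counts summed to between 56233957 and 61577670 in WT TAC hearts, against 70144548 to 74282028 in WT sham hearts. There were 16690 genes with at least 10 normalized counts in at least 3 of the 15 hearts, and these were tested. Fold changes are WT TAC over WT sham on the log2(normalized count + 1) scale, which understates the change of low genes, with their standard error (SE), also where a gene name is followed by a value, its error and an adjusted p alone. The p-values come from limma and were adjusted over all 16690 genes by the Benjamini-Hochberg method. An adjusted p under 0.05 is the threshold at which a gene is called higher or lower, and a called gene is a differentially expressed gene (DEG) if its log2 fold change is also beyond 1 in size.

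TAC changed the expression of a large part of the WT heart's genes. In WT TAC hearts 2881 genes were higher, 17.3% of those tested, and 2750 were lower, 16.5%. There were 1099 DEGs that were higher, 6.58%, and 826 that were lower, 4.95%. The median log2 fold change over all tested genes was -0.01, so the table as a whole was centred close to 0. All 4 TAC hearts lay above all 4 sham hearts for 16.2% of the tested genes, and below them for 15.5%. Among the higher DEGs 965 showed such separation, and among the lower ones 715. Rises reached further than falls: 61 DEGs had a log2 fold change over 4 and 13 had one under -4.

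**Figure D1:**
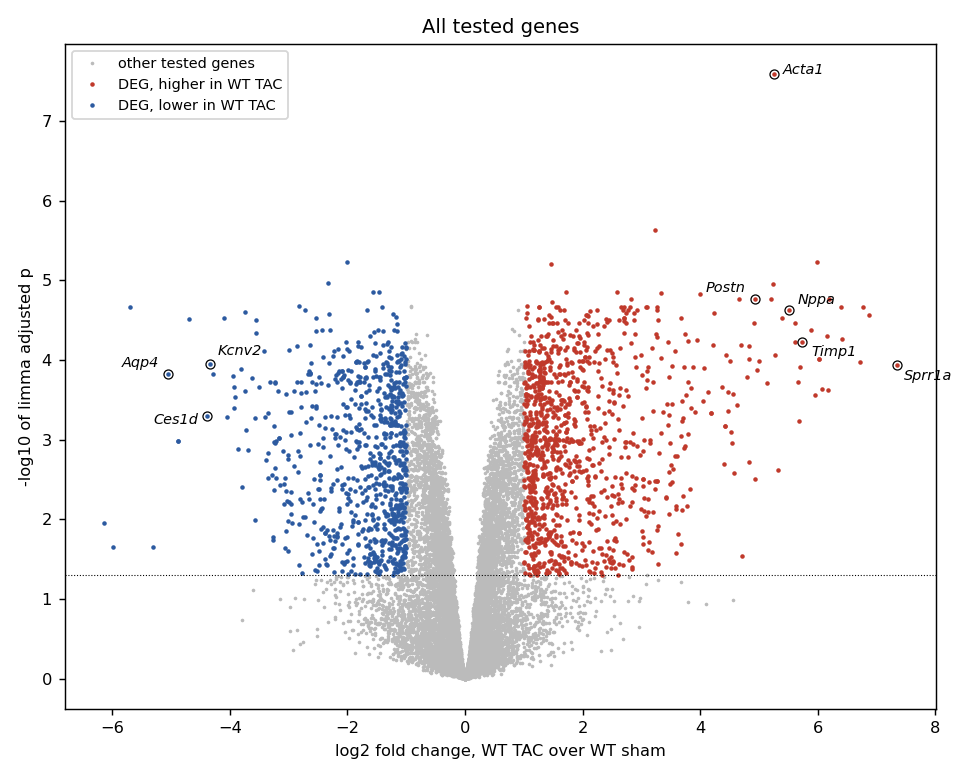
Log2 fold change of WT TAC over WT sham hearts (x axis) against -log10 of the limma adjusted p (y axis) for the 16690 tested genes, 1 point a gene. The 1099 higher DEGs are red, the 826 lower DEGs blue and the other genes grey, and ringed points with names are 8 of the genes described in the text.

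The TAC hearts differed from one another more than the sham hearts did. A principal component analysis of the 8 WT hearts was run on the 500 genes that varied most between them. On its first axis, with 52.5% of the variance, the TAC hearts had scores of 26.5, 44.4, 11.8 and 52.3 and the sham hearts had -29.4, -31.2, -35.3 and -39.0, so the groups did not overlap. TAC heart 3 lay nearest to the shams. It had the lowest TAC value for 794 of the 1099 higher DEGs and the highest TAC value for 542 of the 826 lower DEGs, while TAC heart 4 had the highest value for 585 of the higher ones. The standard deviation of a gene's log2 values between hearts had a median of 0.293 in the TAC group and 0.181 in the sham group. The pressure across the constriction is not in the table, so how far each heart was loaded is not known here.

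Genes that answer to load and stretch were higher in WT TAC hearts. Of the 22 genes listed as load hormones and stretch genes, 17 were higher and 1 was lower, with a median log2 fold change of 1.86. The promoters of Nppa and Ankrd1 of this list, and of Acta1 and Myh7 of the sarcomere genes, are shown because these 4 genes rose together and, in each, every TAC heart was above every sham heart. Each is the RefSeq window of GRCm38.p6 from 250 bases before to 50 bases after the annotated start of transcription, 5′ to 3′ on the strand of the gene. Capitals mark every match, on either strand, to the letters CATTCC (the core of the MCAT element), TATAAA (the TATA box), AGATAA (the GATA core) or the CArG box bound by serum response factor. The windows are chr4:148000472-148000771, plus strand, for Nppa, chr8:123894726-123895025, minus strand, for Acta1, chr19:36119795-36120094, minus strand, for Ankrd1, and chr14:54994577-54994876, minus strand, for the upstream of 2 annotated starts of Myh7.
Nppa: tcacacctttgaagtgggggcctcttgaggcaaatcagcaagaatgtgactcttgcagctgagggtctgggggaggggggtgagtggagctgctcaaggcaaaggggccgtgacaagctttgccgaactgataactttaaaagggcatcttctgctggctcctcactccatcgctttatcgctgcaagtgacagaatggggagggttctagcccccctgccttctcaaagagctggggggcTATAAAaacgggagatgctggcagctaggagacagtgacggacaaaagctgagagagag
Acta1: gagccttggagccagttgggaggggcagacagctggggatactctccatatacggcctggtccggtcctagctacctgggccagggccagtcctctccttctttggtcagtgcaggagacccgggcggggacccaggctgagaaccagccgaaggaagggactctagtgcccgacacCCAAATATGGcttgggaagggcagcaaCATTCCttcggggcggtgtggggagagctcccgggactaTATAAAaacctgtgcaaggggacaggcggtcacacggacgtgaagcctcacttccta
Ankrd1: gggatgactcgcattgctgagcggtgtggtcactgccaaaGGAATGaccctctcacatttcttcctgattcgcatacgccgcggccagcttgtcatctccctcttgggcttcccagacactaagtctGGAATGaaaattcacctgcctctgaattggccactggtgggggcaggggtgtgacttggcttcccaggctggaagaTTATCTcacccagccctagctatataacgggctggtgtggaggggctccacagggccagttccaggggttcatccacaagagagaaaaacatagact
Myh7: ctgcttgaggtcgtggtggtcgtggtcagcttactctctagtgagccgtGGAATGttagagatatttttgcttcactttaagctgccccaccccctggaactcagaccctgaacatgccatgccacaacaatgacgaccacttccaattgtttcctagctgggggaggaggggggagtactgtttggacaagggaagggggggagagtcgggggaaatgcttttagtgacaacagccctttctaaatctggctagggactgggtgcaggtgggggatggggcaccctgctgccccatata

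The Acta1 window held 1 CArG box, 1 CATTCC and 1 TATAAA. The Ankrd1 window held 2 matches to CATTCC and 1 to AGATAA, all on the other strand, the Myh7 window 1 to CATTCC on the other strand, and the Nppa window only a TATAAA. Of the 27025 genes with such a window, CATTCC or its complement was present in 14.6%, TATAAA in 14.2%, AGATAA in 11.4% and a CArG box in 1.57%. The matches are letters in the window and no binding was measured.

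Nppa, which encodes atrial natriuretic peptide, stood at 403755, 489753, 125391 and 667500.0 normalized counts in WT TAC hearts, against 10383, 5242, 8617 and 8302 in WT sham hearts. The lowest TAC heart, heart 3, was still above every sham heart, and the fitted change was 45.4-fold (log2 fold change 5.50 ± 0.58 SE, adjusted p = 2.3e-05). The related hormone gene Nppb, chosen for its role after the values were seen, had 103680.5, 124521, 62129 and 112459.6 normalized counts in WT TAC hearts, against 24443, 12461, 10741 and 14033 in WT sham hearts. It rose by less than Nppa did (log2 fold change 2.73 ± 0.31 SE, adjusted p = 3.4e-05), and again no TAC heart overlapped the shams. Acta1, the skeletal muscle actin that the fetal heart uses, had 273090.5, 190989.7, 278466 and 228931 normalized counts in WT TAC hearts, against 10282, 5957, 4311 and 5939.9 in WT sham hearts. Its 4 TAC values lay closer together than those of Nppa, and TAC heart 3 was the highest of them (log2 fold change 5.25 ± 0.27 SE, adjusted p = 2.6e-08). Ankrd1, a titin-bound stretch sensor, had 434433, 328794, 290488 and 287654 normalized counts in WT TAC hearts, against 86303, 50934, 49071 and 43267 in WT sham hearts, with TAC heart 1 highest and all TAC hearts above the shams (log2 fold change 2.58 ± 0.24 SE, adjusted p = 1.4e-05).

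TAC heart 3 was also the lowest TAC heart for 4 further genes of the list. Sprr1a, a small proline-rich protein induced by stress in cardiomyocytes, had the largest fitted rise of the DEGs with a mean of at least 100 normalized counts and no overlap between groups, with 769, 2603, 269 and 8859 normalized counts in WT TAC hearts, against 5.38, 14, 4.05 and 13.3 in WT sham hearts. Heart 4 alone was above the sum of the other 3 TAC hearts (log2 fold change 7.34 ± 1.03 SE, adjusted p = 1.2e-04). Ankrd2, a muscle ankyrin repeat protein of the same family as Ankrd1, ranged from 141 to 897 in WT TAC hearts, against 8.45 to 18.8 in WT sham hearts (log2 fold change 4.92 ± 0.56 SE, adjusted p = 3.5e-05). Xirp2, an actin-binding protein of the intercalated disc, was 131689.8 to 386110.4 in WT TAC hearts, against 26314 to 37573 in WT sham hearts (log2 fold change 3.08 ± 0.31 SE, adjusted p = 2.2e-05). Rcan1, an inhibitor and target of calcineurin, was 17282 to 40180.2 in WT TAC hearts, against 3988 to 5204 in WT sham hearts (log2 fold change 2.71 ± 0.28 SE, adjusted p = 2.2e-05).

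**Figure D2:**
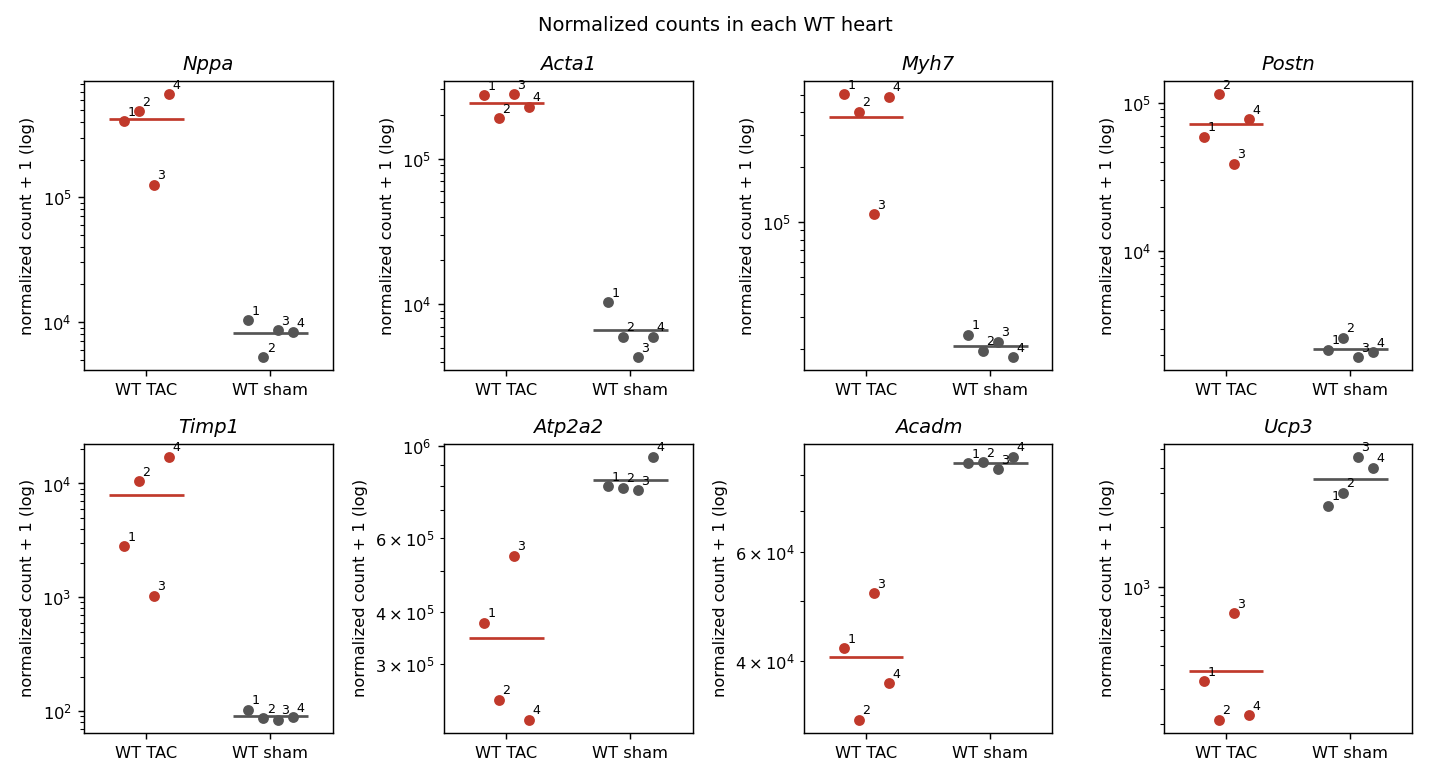
Normalized counts (y axis, log scale, 1 added to each value) of 8 genes in each WT TAC heart (left, red) and each WT sham heart (right, grey); the digit beside a point is its replicate number and the bar is the mean of the 4 hearts. In every panel the 2 groups separate, and TAC heart 3 is the TAC point nearest the shams for each gene but Acta1.

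In the sarcomere, Myh7 and Acta1 of the fetal heart rose and Myh6 of the adult heart fell. Myh7, the slow beta-myosin heavy chain that dominates the fetal mouse ventricle, had 502995, 402949.9, 110035 and 485957 normalized counts in WT TAC hearts, against 24031, 19695, 22014 and 18138 in WT sham hearts (log2 fold change 3.95 ± 0.49 SE, adjusted p = 5.7e-05). Myh6, the fast alpha-myosin heavy chain of the adult, had 462844, 173087, 887822 and 361059.8 normalized counts in WT TAC hearts, against 1165160.3, 1026729, 1437459 and 1243549.7 in WT sham hearts (log2 fold change -1.59 ± 0.35 SE, adjusted p = 0.0028). The 2 transcripts are of near-equal length, so their shares can be read together: Myh7 made up 52.1, 70.0, 11 and 57.4% in WT TAC hearts, against 2.02, 1.88, 1.51 and 1.44% in WT sham hearts of their sum. TAC hearts 1, 2 and 4 had more Myh7 than Myh6 and TAC heart 3 did not. Among 8 gene pairs compared as shares, this difference gave p = 0.029 by a 2-sided exact permutation test, the smallest that 4 against 4 hearts allow, and 0.038 after adjustment over the 8 pairs.

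Acta1 was 35.6% ± 3.57 in WT TAC hearts and 1.43% ± 0.591 in WT sham hearts (SD, n = 4 each) of the sum of Acta1 and the cardiac actin Actc1, with the same exact p of 0.029 and adjusted p of 0.038. Actc1 itself was not called (log2 fold change -0.08 ± 0.18 SE, adjusted p = 0.78). Tnni1, the slow skeletal troponin I of the fetal heart, was called higher (log2 fold change 1.47 ± 0.48 SE, adjusted p = 0.026) but stayed rare, at 0.0364% ± 0.0185 of troponin I counts in WT TAC hearts and 0.00504% ± 0.00163 in WT sham hearts (SD, n = 4 each). The Tnni1 call was lost in 6 of the 25 alternatives in which it was tested, with adjusted p over them between 0.0066 and 0.083. In all, the fetal and non-ventricular sarcomere list had 7 of 17 tested members higher and 3 lower, median log2 fold change 0.38. Its non-muscle alpha-actinin gene Actn1 rose (log2 fold change 1.58 ± 0.21 SE, adjusted p = 7.4e-05). The ancient myosin gene Myh7b fell (log2 fold change -2.18 ± 0.47 SE, adjusted p = 0.0023).

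Of the adult ventricular sarcomere genes, 3 of 20 were higher and 7 were lower, and 10 passed in neither direction (median -0.21). Those that fell beside Myh6 included the cardiac troponin I gene Tnni3 (-1.14 ± 0.18, adjusted p = 2.9e-04), the titin cap Tcap (-1.06 ± 0.22, adjusted p = 0.0021) and the ventricular regulatory light chain Myl2 (-0.90 ± 0.17, adjusted p = 0.0011). The Z-disc gene Pdlim5 went the other way and rose by 0.94 ± 0.12 on the log2 scale (adjusted p = 7.7e-05).

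Calcium handling and repolarization genes were more often lower than higher. The sarcoplasmic reticulum calcium pump Atp2a2 had 377213, 246417, 545237 and 220791 normalized counts in WT TAC hearts, against 798933, 793052, 781646 and 940505 in WT sham hearts (log2 fold change -1.34 ± 0.25 SE, adjusted p = 8.5e-04). TAC heart 3 kept the highest value and no TAC heart reached a sham heart. Its inhibitor Pln, phospholamban, also fell (log2 fold change -1.14 ± 0.21 SE, adjusted p = 6.5e-04). So did the calcium-binding Hrc (-1.65 ± 0.28, adjusted p = 4.3e-04) and triadin of the release complex, Trdn (-0.76 ± 0.13, adjusted p = 4.3e-04). Over the whole calcium cycling list 1 of 20 genes was higher and 9 were lower, against the background of 16.5% lower over all genes.

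Cardiac potassium channel genes had 0 of 19 tested members higher and 13 lower, median log2 fold change -0.69. Kcnv2, a silent subunit that modifies delayed rectifier channels, had 74.7, 27.7, 137 and 9.93 normalized counts in WT TAC hearts, against 701, 906, 1002 and 856 in WT sham hearts (log2 fold change -4.34 ± 0.60 SE, adjusted p = 1.1e-04). Kcnd2, of the fast transient outward current, was 249 to 721 in WT TAC hearts, against 1586 to 1757 in WT sham hearts (log2 fold change -2.23 ± 0.29 SE, adjusted p = 7.7e-05). The acetylcholine-gated inward rectifier subunits fell as well, Kcnj3 with 376 to 1748 in WT TAC hearts, against 4027 to 4667 in WT sham hearts (log2 fold change -2.62 ± 0.36 SE, adjusted p = 1.1e-04), and Kcnj5 with a log2 fold change of -1.17 ± 0.13 (adjusted p = 2.9e-05). Of the sodium, pacemaker and junction genes 3 of 16 were higher, close to the 17.3% over all tested genes, and 7 were lower, above the 16.5% over all. The sodium channel beta subunit Scn4b (-2.48 ± 0.59, adjusted p = 0.0041) and the pacemaker channel Hcn2 (-1.11 ± 0.21, adjusted p = 0.0011) were among those that fell.

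Genes of receptors for catecholamines and angiotensin, Adra1a, Adra1b and Agtr1a, were lower. Adra1a, an alpha-1 adrenergic receptor, had 199.5, 134, 682 and 181 normalized counts in WT TAC hearts, against 1343, 1514, 1333 and 1371 in WT sham hearts (log2 fold change -2.53 ± 0.39 SE, adjusted p = 2.0e-04). Its relative Adra1b fell too (log2 fold change -1.84 ± 0.25 SE, adjusted p = 1.0e-04). The adrenergic and cyclic AMP list had 2 of 20 tested members higher and 8 lower, median log2 fold change -0.21, including a fall of the phosphodiesterase Pde3a (-1.004 ± 0.15, adjusted p = 1.6e-04). In the renin-angiotensin and endothelin list 4 of 12 tested genes were higher and 5 lower. Ace, the angiotensin-converting enzyme, was 7631 to 17434 in WT TAC hearts, against 2782 to 3272 in WT sham hearts (log2 fold change 1.91 ± 0.24 SE, adjusted p = 6.0e-05). Endothelin 3, Edn3, also rose (log2 fold change 2.27 ± 0.38 SE, adjusted p = 3.9e-04). The angiotensin receptor Agtr1a was 566 to 1476 in WT TAC hearts, against 2329 to 3253 in WT sham hearts (log2 fold change -1.47 ± 0.24 SE, adjusted p = 3.2e-04). Of 23 calcineurin, kinase and hypertrophy signalling genes 8 were lower, among them the serum response factor partner Myocd (-0.66 ± 0.12, adjusted p = 5.2e-04), Mef2a (-0.78 ± 0.13, adjusted p = 3.4e-04) and the histone deacetylase Hdac5 (-0.45 ± 0.09, adjusted p = 0.0013), and 3 were higher.

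Fatty acid oxidation had the lowest median of the 48 pathway lists. Of 29 genes for uptake and beta-oxidation 27 were lower and none was higher, with a median log2 fold change of -0.96, and in 27 of them the 4 TAC hearts lay below the 4 sham hearts. Acadm, the medium-chain acyl-CoA dehydrogenase, had 41969, 32124, 51487 and 36838 normalized counts in WT TAC hearts, against 83586, 83812, 81747 and 85505 in WT sham hearts (log2 fold change -1.06 ± 0.14 SE, adjusted p = 6.9e-05). Acaa2, the thiolase of the last step, had 16692, 10109.7, 22338 and 13713 normalized counts in WT TAC hearts, against 47594, 45129, 50789 and 46881 in WT sham hearts (log2 fold change -1.66 ± 0.23 SE, adjusted p = 1.0e-04). In both genes TAC heart 2 was lowest and TAC heart 3 highest among the TAC hearts. Ucp3, a mitochondrial carrier induced by fatty acids, fell furthest in the list and was 208 to 731 in WT TAC hearts, against 2582 to 4579 in WT sham hearts (log2 fold change -3.41 ± 0.45 SE, adjusted p = 7.8e-05). The enoyl-CoA isomerase Eci1 fell by 1.33 ± 0.18 on the log2 scale (adjusted p = 1.1e-04). Carnitine palmitoyltransferase fell in its muscle form Cpt1b (log2 fold change -0.46 ± 0.12 SE, adjusted p = 0.0071) and in its liver form Cpt1a (log2 fold change -0.45 ± 0.10 SE, adjusted p = 0.0033). The share of Cpt1a in their sum was 7.40% ± 1.33 in WT TAC hearts and 7.30% ± 0.775 in WT sham hearts (SD, n = 4 each), a difference inside the spread between hearts (exact permutation p = 0.91).

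Regulators of this programme were more often lower than higher, with 13 of 20 PPAR, PGC-1 and ERR regulators lower and 1 higher. The coactivator Ppargc1a (PGC-1 alpha) had 2361, 1857, 5869.8 and 1499 normalized counts in WT TAC hearts, against 6493, 7788, 4879 and 12151 in WT sham hearts (log2 fold change -1.57 ± 0.36 SE, adjusted p = 0.0037). Here the groups overlapped, since TAC heart 3 was above 1 sham heart. Klf15, a transcription factor of lipid and amino acid use, had 1098, 803, 1323 and 1187 normalized counts in WT TAC hearts, against 2754, 2815, 3103 and 2776 in WT sham hearts without overlap (log2 fold change -1.40 ± 0.17 SE, adjusted p = 4.3e-05). The muscle coactivator Perm1 (-0.80 ± 0.14, adjusted p = 6.7e-04) and the mitochondrial DNA helicase Twnk (-0.54 ± 0.09, adjusted p = 4.4e-04) fell as well, and the orphan receptor Nr4a1 (1.93 ± 0.56, adjusted p = 0.015) was the member called higher, a call lost without TAC heart 4 (adjusted p = 0.055, range over alternatives 0.0014 to 0.055).

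**Figure D3:**
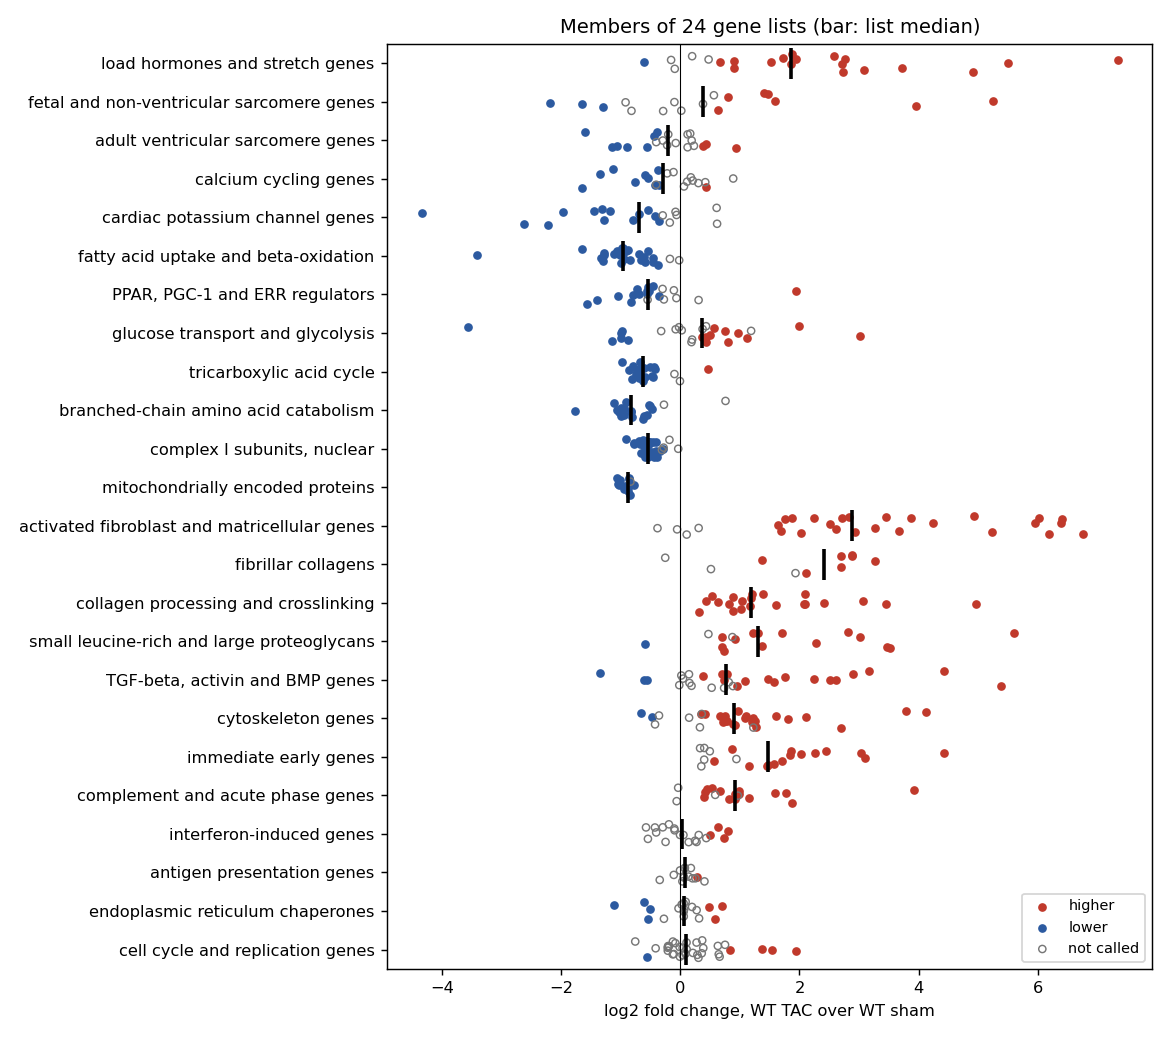
Log2 fold change of WT TAC over WT sham (x axis) for every tested member of 24 gene lists (rows), 1 point a gene; filled red points were called higher, filled blue points lower and open points were not called (limma adjusted p of 0.05), and the black bar is the median of the list. Matrix and load lists lie to the right of 0, and fatty acid, citrate cycle, branched-chain amino acid and respiratory chain lists to the left.

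Genes of glucose use changed in both directions. The glucose transport and glycolysis list had 11 of 26 tested members higher and 6 lower, median log2 fold change 0.36. The insulin-sensitive transporter Slc2a4 (GLUT4) fell (log2 fold change -1.001 ± 0.22 SE, adjusted p = 0.0028) and the basal transporter Slc2a1 (GLUT1) rose (log2 fold change 1.12 ± 0.29 SE, adjusted p = 0.0079). The Slc2a1 share of their sum was 11.6, 36.7, 6.16 and 25.5% in WT TAC hearts, against 4.47, 4.76, 4.93 and 3.79% in WT sham hearts. TAC hearts 2 and 4 carried most of that difference. Hk1 was 48% ± 9.04 in WT TAC hearts and 30.1% ± 4.63 in WT sham hearts (SD, n = 4 each) of the sum of both hexokinases. Ldha, the lactate dehydrogenase subunit that favours lactate formation, was 51.5% ± 8.89 in WT TAC hearts and 28.5% ± 0.302 in WT sham hearts (SD, n = 4 each) of the sum with Ldhb. Each of these 3 shares had an exact permutation p of 0.029 and an adjusted p of 0.038. The platelet phosphofructokinase Pfkp was 5744 to 14374 in WT TAC hearts, against 2566 to 2855 in WT sham hearts (log2 fold change 2.00 ± 0.27 SE, adjusted p = 1.0e-04). The lactate exporter Slc16a3 was 219.8 to 1512 in WT TAC hearts, against 65.2 to 105 in WT sham hearts (log2 fold change 3.01 ± 0.53 SE, adjusted p = 5.4e-04). In the other direction Pfkfb1, which sets the level of a phosphofructokinase activator, was 34 to 193 in WT TAC hearts, against 821 to 1179 in WT sham hearts (log2 fold change -3.56 ± 0.40 SE, adjusted p = 3.1e-05).

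Genes of oxidation downstream of both fuels were mostly lower. The pyruvate dehydrogenase list had 0 of 13 tested members higher and 10 lower, median log2 fold change -0.57, with falls of the phosphatase Pdp2 (-2.07 ± 0.31, adjusted p = 1.6e-04), the pyruvate carrier Mpc2 (-0.99 ± 0.18, adjusted p = 5.8e-04) and the E1 subunit Pdha1 (-0.57 ± 0.10, adjusted p = 4.1e-04). The tricarboxylic acid cycle list had 1 of 21 tested members higher and 18 lower, median log2 fold change -0.62. Its succinate dehydrogenase subunit Sdha was 43055 to 66544 in WT TAC hearts, against 98341 to 108118 in WT sham hearts (log2 fold change -0.98 ± 0.13 SE, adjusted p = 1.0e-04). Branched-chain amino acid catabolism had 0 of 20 tested members higher and 18 lower, median log2 fold change -0.82. Ppm1k, the phosphatase that activates the branched-chain ketoacid dehydrogenase, had 2201, 1948, 3722 and 1620.3 normalized counts in WT TAC hearts, against 7131, 7689.7, 7974 and 7913 in WT sham hearts (log2 fold change -1.77 ± 0.22 SE, adjusted p = 6.8e-05). The dehydrogenase subunits Dbt (-1.12 ± 0.17, adjusted p = 1.9e-04) and Bckdhb (-1.07 ± 0.17, adjusted p = 2.8e-04) fell by about 1 on the log2 scale. The propionyl-CoA carboxylase gene Pcca had a small SE and no overlap (log2 fold change -0.91 ± 0.09 SE, adjusted p = 2.2e-05). Of 6 ketone body genes 3 were lower and 1 was higher. The ketone-using enzyme Oxct1 (-0.58 ± 0.13, adjusted p = 0.0034) was among the lower ones.

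Respiratory chain genes were mostly lower, nuclear and mitochondrial ones alike, by less than 1 on the log2 scale for most. Complex I had 32 of 36 nuclear subunits lower and none higher (median -0.54), and complexes III to V had 28 of 37 lower and 1 higher (median -0.57). Ndufs1, the largest complex I subunit, was 25699.9 to 38032 in WT TAC hearts, against 55257 to 57902 in WT sham hearts (log2 fold change -0.90 ± 0.13 SE, adjusted p = 1.3e-04). Cox7a1, the heart form of a cytochrome oxidase subunit, was 10521 to 24762 in WT TAC hearts, against 36750.1 to 42912 in WT sham hearts (log2 fold change -1.42 ± 0.24 SE, adjusted p = 4.2e-04). Of the 13 proteins encoded by mitochondrial DNA 12 were lower and none higher (median -0.87), for example mt-Nd2 with 774680.4, 608673, 712899 and 427130.2 normalized counts in WT TAC hearts, against 1313467, 1256773, 1427267 and 1139889 in WT sham hearts (log2 fold change -1.06 ± 0.22 SE, adjusted p = 0.0016). These 13 genes together held 25.8, 22.9, 27.2 and 19.8% of the normalized counts in WT TAC hearts, against 35.4, 35.9, 36.2 and 34.7% in WT sham hearts. Quantile normalization left 4 of the 13 called lower, and mt-Nd2 uncalled (log2 fold change -0.37, adjusted p = 0.13, against 5.5e-04 to 0.13 over all alternatives). The difference of -11.6 percentage points had the smallest possible exact permutation p of 0.029 (2-sided).

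**Figure D4:**
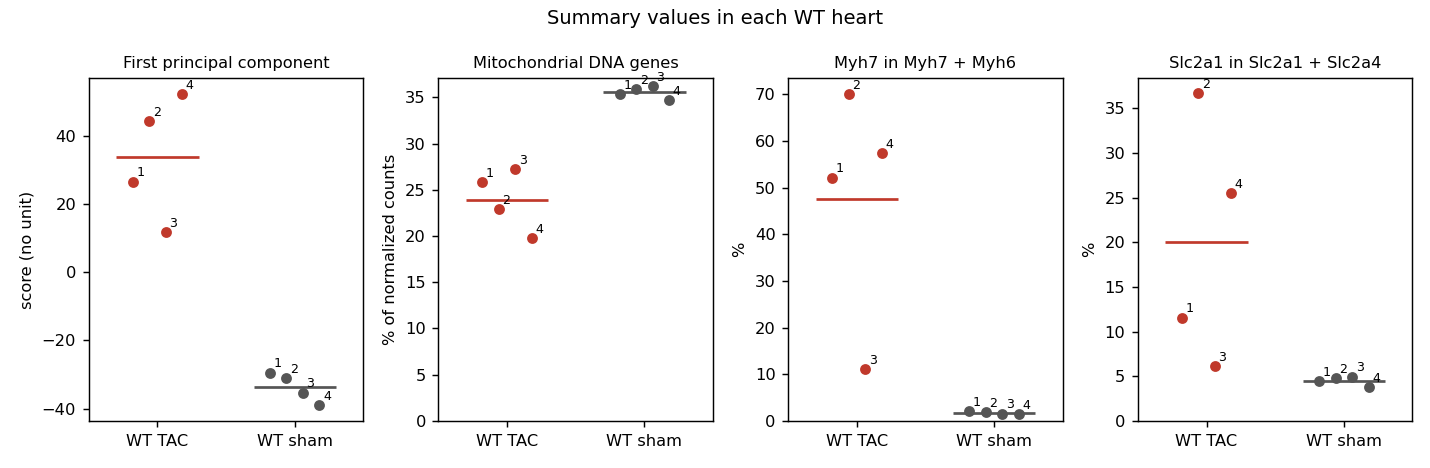
Values per heart for WT TAC hearts (left, red) and WT sham hearts (right, grey), labelled with the replicate number, with a bar at the group mean: score on the first principal component (no unit), percent of normalized counts from mitochondrial DNA, percent of Myh7 in Myh7 plus Myh6, and percent of Slc2a1 in Slc2a1 plus Slc2a4. The groups do not overlap in any panel, and TAC heart 3 is the TAC heart closest to the shams in all 4.

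Genes of NAD metabolism were split. Nampt, the rate-limiting enzyme of NAD salvage, was 5015 to 8218 in WT TAC hearts, against 13586 to 14989.7 in WT sham hearts (log2 fold change -1.26 ± 0.17 SE, adjusted p = 9.5e-05). Nadk2, the mitochondrial NAD kinase, had 1817, 1578, 2022 and 1530.3 normalized counts in WT TAC hearts, against 4726, 4613, 4790.1 and 4814 in WT sham hearts, with a narrow range in each group (log2 fold change -1.46 ± 0.13 SE, adjusted p = 1.4e-05). Nmrk2, the muscle nicotinamide riboside kinase, had 6519, 20873, 979.9 and 30948 normalized counts in WT TAC hearts, against 402, 336, 418 and 361 in WT sham hearts and rose in every TAC heart, most in heart 4 (log2 fold change 4.40 ± 0.93 SE, adjusted p = 0.002). Sirt5 itself, the mitochondrial desuccinylase that the series overexpresses in its other mice, was 1574 to 2113 in WT TAC hearts, against 2028 to 2365 in WT sham hearts and was not called (log2 fold change -0.20 ± 0.11 SE, adjusted p = 0.19). The list of sirtuins and NAD genes had 5 of 21 tested members higher and 8 lower, median log2 fold change -0.22. In the phosphotransfer list the muscle creatine kinase Ckm (-0.75 ± 0.21, adjusted p = 0.011) fell, and the brain form Ckb (0.85 ± 0.16, adjusted p = 0.0011), the creatine transporter Slc6a8 (0.51 ± 0.10, adjusted p = 0.0016) and the ubiquitous mitochondrial form Ckmt1 (3.04 ± 0.79, adjusted p = 0.0078) rose.

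The matrix genes held the highest median of the 48 pathway lists. Of 28 activated fibroblast and matricellular genes 24 were higher, Cthrc1 included, and none was lower. The median log2 fold change was 2.88, and in these 24 the change exceeded 1. Among the WT hearts Cthrc1 passed the filter only through the TAC hearts, as described below. Postn, periostin of activated fibroblasts, had 58814, 113834, 38821 and 77019 normalized counts in WT TAC hearts, against 2173, 2618, 1944 and 2092 in WT sham hearts (log2 fold change 4.93 ± 0.48 SE, adjusted p = 1.7e-05). Even the lowest TAC heart was far above every sham. Thbs4, a thrombospondin, had 11530.4, 24395, 7032 and 43703 normalized counts in WT TAC hearts, against 249, 198, 183 and 189 in WT sham hearts (log2 fold change 6.39 ± 0.66 SE, adjusted p = 2.2e-05). Its relative Comp ranged 2389 to 17036 in WT TAC hearts, against 67 to 108 in WT sham hearts (log2 fold change 6.41 ± 0.79 SE, adjusted p = 5.4e-05). Ltbp2, which binds microfibrils, was 5638 to 23934 in WT TAC hearts, against 102 to 227 in WT sham hearts (log2 fold change 6.19 ± 0.59 SE, adjusted p = 1.7e-05). Cilp, a matrix protein known from cartilage, was 11824 to 35114 in WT TAC hearts, against 357 to 715 in WT sham hearts (log2 fold change 5.23 ± 0.46 SE, adjusted p = 1.1e-05). Thbs1, which activates latent TGF-beta, was 3303 to 19976 in WT TAC hearts, against 454 to 809.7 in WT sham hearts (log2 fold change 3.87 ± 0.55 SE, adjusted p = 1.2e-04). Whole hearts were measured, so more fibroblasts and more RNA per fibroblast cannot be told apart in these values.

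Fibrillar collagen genes had 7 of 10 tested members higher and 0 lower, median log2 fold change 2.41. Col1a1, the main chain of collagen I, had 19339.5, 34519, 14363 and 36588 normalized counts in WT TAC hearts, against 3263, 3814, 3159 and 3048 in WT sham hearts (log2 fold change 2.88 ± 0.32 SE, adjusted p = 3.1e-05). Col3a1 had 50913, 103137, 38978 and 68484 normalized counts in WT TAC hearts, against 9098, 10704, 8925 and 8999 in WT sham hearts (log2 fold change 2.70 ± 0.31 SE, adjusted p = 3.3e-05). Col3a1 made up 71.4% ± 4.28 in WT TAC hearts and 74% ± 0.493 in WT sham hearts (SD, n = 4 each) of the sum of these genes, and this pair did not separate the groups (exact permutation p = 0.26). Col5a2 rose as well (log2 fold change 3.27 ± 0.40 SE, adjusted p = 5.1e-05). Of 13 other collagens 8 were higher and 1 was lower. Col12a1, a collagen that bridges fibrils, was 1289.9 to 6903 in WT TAC hearts, against 34 to 79.9 in WT sham hearts (log2 fold change 6.16 ± 0.75 SE, adjusted p = 5.0e-05). Col8a1, a short-chain collagen, was 10931 to 28778 in WT TAC hearts, against 1001 to 1246 in WT sham hearts (log2 fold change 4.00 ± 0.37 SE, adjusted p = 1.5e-05). The basement membrane list had 13 of 19 tested members higher and 1 lower, median log2 fold change 0.43, and Col4a2 of collagen IV rose by 1.42 ± 0.16 (adjusted p = 3.4e-05).

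Of the enzymes that build and cross-link collagen, 21 of 21 were higher (median 1.18). Lox, lysyl oxidase, had 4306, 16994, 1696 and 14817 normalized counts in WT TAC hearts, against 201, 231, 233 and 173 in WT sham hearts, with heart 3 lowest and heart 2 highest among the TAC hearts (log2 fold change 4.97 ± 0.71 SE, adjusted p = 1.3e-04). The related oxidase Loxl1 (2.07 ± 0.26, adjusted p = 6.8e-05), the procollagen peptidase Adamts2 (2.09 ± 0.24, adjusted p = 3.4e-05) and the lysyl hydroxylase Plod3 (1.02 ± 0.18, adjusted p = 5.8e-04) rose by smaller amounts. Among proteoglycans 14 of 17 were higher. Fibromodulin, Fmod, was 861 to 3572 in WT TAC hearts, against 26 to 55.5 in WT sham hearts (log2 fold change 5.61 ± 0.70 SE, adjusted p = 5.9e-05). Biglycan, Bgn, was 42642 to 86129 in WT TAC hearts, against 8306 to 9835 in WT sham hearts (log2 fold change 2.81 ± 0.29 SE, adjusted p = 2.2e-05). Matrix proteases and their inhibitors had 16 of 27 tested members higher and 4 lower, median log2 fold change 1.00. Timp1, an inhibitor of metalloproteinases, had 2822, 10440.0, 1034 and 17125 normalized counts in WT TAC hearts, against 102, 85.4, 82.9 and 87.2 in WT sham hearts (log2 fold change 5.73 ± 0.71 SE, adjusted p = 5.9e-05). The aggrecanase Adamts4 was 121 to 1609 in WT TAC hearts, against 51.7 to 118 in WT sham hearts (log2 fold change 2.67 ± 0.63 SE, adjusted p = 0.004). Fibrillin 1, Fbn1, was 13054 to 27211 in WT TAC hearts, against 3607 to 4427 in WT sham hearts (log2 fold change 2.24 ± 0.26 SE, adjusted p = 3.5e-05).

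Of the resident fibroblast markers, 7 of 11 were higher and none lower, with a median log2 fold change of 0.48. Of these 7 genes 4 (Col1a1, Mfap5, Dcn and Lum) are also members of the matrix lists, so they move with them by construction. The other 3 were Pi16 (2.21 ± 0.29, adjusted p = 7.6e-05), Tcf21 (0.48 ± 0.15, adjusted p = 0.026) and Pdgfra (0.33 ± 0.11, adjusted p = 0.03), the last 2 named after their values were seen. The Tcf21 and Pdgfra calls were lost in 3 and 4 of 26 alternatives, with adjusted p of 0.0093 to 0.088 for Tcf21 and 0.0073 to 0.1 for Pdgfra. Both were lost without TAC heart 1, TAC heart 4 or sham heart 3. The summed normalized counts of the 11 markers were 137080.2 to 187247 in WT TAC hearts, against 103318 to 112525 in WT sham hearts. Their part in the matrix result was not tested.

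TGF-beta, activin and BMP genes had 17 of 30 tested members higher and 3 lower, median log2 fold change 0.77. Gdf15, a stress-induced member of the family, had 1349, 4324, 731 and 3358 normalized counts in WT TAC hearts, against 111, 51.3, 34.6 and 21.5 in WT sham hearts (log2 fold change 5.39 ± 0.60 SE, adjusted p = 2.9e-05). The ligands Tgfb1 (0.95 ± 0.18, adjusted p = 9.7e-04) and Tgfb3 (1.57 ± 0.19, adjusted p = 4.5e-05) rose by less, and the follistatin-related Fstl3 (3.17 ± 0.41, adjusted p = 7.1e-05) and Fstl1 (2.61 ± 0.29, adjusted p = 3.1e-05) rose by more. Among 25 Wnt pathway genes 9 were higher and 3 lower. The secreted Wnt inhibitors Frzb (3.26 ± 0.35, adjusted p = 2.4e-05) and Sfrp1 (2.27 ± 0.27, adjusted p = 4.7e-05), and the Dickkopf family gene Dkk3 (3.79 ± 0.47, adjusted p = 5.8e-05), were among the higher ones. Growth factors and receptors had 16 of 40 tested members higher, Ereg included, and 8 lower, median log2 fold change 0.22. The EGF receptor ligands Ereg, at 94.4 to 844 in WT TAC hearts, against 3.34 to 11.5 in WT sham hearts (log2 fold change 5.27 ± 0.70 SE, adjusted p = 8.7e-05), and Hbegf (2.59 ± 0.37, adjusted p = 1.4e-04) rose. Angpt1, the ligand of the vascular receptor TEK, was 268 to 785 in WT TAC hearts, against 2179 to 2575 in WT sham hearts (log2 fold change -2.54 ± 0.28 SE, adjusted p = 2.9e-05). The cardiac growth factor Fgf16 (-1.23 ± 0.13, adjusted p = 2.6e-05) fell too.

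Cytoskeleton and adhesion genes were more often higher than lower. The cytoskeleton list had 22 of 30 tested members higher and 2 lower, median log2 fold change 0.90. Fhl1, a LIM protein of the stretch response, was 23299 to 69187 in WT TAC hearts, against 6969.7 to 7923 in WT sham hearts (log2 fold change 2.70 ± 0.32 SE, adjusted p = 4.6e-05). The intermediate filament desmin, Des, was 141061 to 432723 in WT TAC hearts, against 67235 to 86168 in WT sham hearts (log2 fold change 1.61 ± 0.27 SE, adjusted p = 4.1e-04). Tubb3, a beta-tubulin best known from neurons, was 209.6 to 1255 in WT TAC hearts, against 30.4 to 60.6 in WT sham hearts (log2 fold change 3.79 ± 0.57 SE, adjusted p = 1.9e-04). The membrane-binding Anxa2 rose by 1.68 ± 0.25 (adjusted p = 1.5e-04). Of 22 integrin genes 10 were higher and 3 lower. Itga9 had the smallest adjusted p among them (log2 fold change 1.26 ± 0.13 SE, adjusted p = 2.2e-05). The fibronectin receptor chain Itga5 also rose (log2 fold change 1.52 ± 0.29 SE, adjusted p = 0.001). Itgb6 fell (log2 fold change -1.52 ± 0.39 SE, adjusted p = 0.0071).

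Immediate early genes, the transcription factors that cells switch on within minutes of a stimulus, had 15 of 21 tested members higher and 0 lower, median log2 fold change 1.47. Egr3 was 211 to 752 in WT TAC hearts, against 31.8 to 76.7 in WT sham hearts (log2 fold change 3.10 ± 0.46 SE, adjusted p = 1.8e-04). Junb was 1175 to 5565 in WT TAC hearts, against 401 to 639 in WT sham hearts (log2 fold change 2.25 ± 0.36 SE, adjusted p = 2.8e-04). Fos was 347 to 2147 in WT TAC hearts, against 48.3 to 265 in WT sham hearts (log2 fold change 3.03 ± 0.61 SE, adjusted p = 0.0014). The cytokine list had 15 of 31 tested members higher, Il6 included, and 3 lower, median log2 fold change 0.68. Il6, interleukin 6, had 78.2, 248, 40.0 and 241 normalized counts in WT TAC hearts, against 1.90, 0.476, 1.26 and 0 in WT sham hearts. The shams were at the limit of detection, and among the WT hearts Il6 passed the filter only through the TAC hearts, so its test is not given. Spp1, osteopontin, had 354, 1866, 140.0 and 5544 normalized counts in WT TAC hearts, against 18.5, 30.7, 6.78 and 6.28 in WT sham hearts, with TAC heart 4 far above the rest (log2 fold change 5.96 ± 0.95 SE, adjusted p = 2.8e-04). The decoy receptor Tnfrsf11b was 176 to 618 in WT TAC hearts, against 4.29 to 19.7 in WT sham hearts (log2 fold change 5.00 ± 0.68 SE, adjusted p = 1.0e-04). Il15 was 426 to 959.5 in WT TAC hearts, against 2067 to 2589 in WT sham hearts (log2 fold change -1.98 ± 0.28 SE, adjusted p = 1.3e-04). Of 28 chemokine genes 12 were higher, Cxcl2 included, and 2 lower, with a rise of Cx3cl1 (1.58 ± 0.30, adjusted p = 9.7e-04) and a fall of the eosinophil attractant Ccl11 (-3.23 ± 0.49, adjusted p = 1.9e-04).

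Complement and acute phase genes had 17 of 21 tested members higher and 0 lower, median log2 fold change 0.92. C4b was 2706 to 3865 in WT TAC hearts, against 699 to 1797 in WT sham hearts (log2 fold change 1.78 ± 0.29 SE, adjusted p = 3.5e-04). Clusterin, Clu, was 42777 to 169682 in WT TAC hearts, against 21081 to 27342 in WT sham hearts (log2 fold change 1.88 ± 0.39 SE, adjusted p = 0.0019). Lipocalin 2, Lcn2, was 182 to 3839.6 in WT TAC hearts, against 50.2 to 105 in WT sham hearts (log2 fold change 3.92 ± 0.67 SE, adjusted p = 4.5e-04). The adhesion molecule Icam1 (0.68 ± 0.15, adjusted p = 0.0023) rose. Of the interferon-induced genes 4 of 20 were higher, and of the antigen presentation genes 1 of 14, and none was lower, with medians of 0.02 and 0.08. Over all tested genes 17.3% were higher and 16.5% lower. Over the alternatives the interferon list had 2 to 7 genes higher and 0 to 4 lower, with medians of -0.10 to 0.25.

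Endoplasmic reticulum chaperones had 3 of 18 tested members higher and 4 lower, median log2 fold change 0.06, shares close to the 17.3% higher and 16.5% lower over all genes. Among the lower ones were the chaperone Hspa5 (-0.54 ± 0.10, adjusted p = 6.0e-04) and the degradation factor Herpud1 (-1.11 ± 0.17, adjusted p = 2.4e-04). Genes of the integrated stress response and amino acid synthesis had 12 of 22 tested members higher and 1 lower, median log2 fold change 0.75, including the folate enzyme Mthfd2 (1.64 ± 0.20, adjusted p = 5.0e-05) and the proline synthesis gene Pycr1 (2.20 ± 0.30, adjusted p = 1.0e-04). Heat shock and small chaperones had 8 of 16 tested members higher and 2 lower, median log2 fold change 0.32. Hspb7, a cardiac small heat shock protein, rose in every TAC heart (log2 fold change 0.88 ± 0.13 SE, adjusted p = 1.4e-04). Inducible Hspa1a was high in TAC hearts 2 and 4 and inside the sham range in TAC heart 1, with 228, 1645, 412 and 3162 normalized counts in WT TAC hearts, against 277, 133, 137 and 116 in WT sham hearts (log2 fold change 2.42 ± 0.59 SE, adjusted p = 0.0053). With array weights, which count variable hearts less, the Hspa1a call was lost (log2 fold change 1.16, adjusted p = 0.071, against 6.1e-04 to 0.071 over all alternatives). Antioxidant genes had 11 of 28 tested members higher and 6 lower, median log2 fold change 0.25. The secreted enzymes Gpx3 (2.09 ± 0.32, adjusted p = 2.2e-04) and Sod3 (1.31 ± 0.20, adjusted p = 2.2e-04) rose and the mitochondrial superoxide dismutase Sod2 (-0.56 ± 0.14, adjusted p = 0.0051) fell.

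The cell cycle list stayed mostly uncalled, with 4 of 34 genes higher, 1 lower and a median of 0.10. Both shares were below the 17.3% higher and 16.5% lower over all tested genes. The arrest genes Cdkn1a (1.54 ± 0.33, adjusted p = 0.0023) and Cdkn2b (1.94 ± 0.52, adjusted p = 0.0088) and the replication genes Mcm6 (0.83 ± 0.12, adjusted p = 1.9e-04) and Tyms (1.36 ± 0.26, adjusted p = 9.7e-04) were the higher ones. Cenpf, outside that list, is a kinetochore protein and it had 146, 62.8, 530.2 and 412 normalized counts in WT TAC hearts, against 1434, 2128, 3625 and 3130.0 in WT sham hearts (log2 fold change -3.51 ± 0.54 SE, adjusted p = 2.2e-04). The circadian list had 2 of 19 tested members higher and 4 lower, median log2 fold change -0.24, not far from the shares over all genes, and its lower members numbered 3 to 7 over the alternatives. Hlf and Nfil3 were called, with -1.70 ± 0.36 (adjusted p = 0.0022) for Hlf and 0.97 ± 0.20 (adjusted p = 0.0019) for Nfil3. Of the cytosolic ribosomal proteins 9 of 32 were higher and none lower, and 3 were higher without WT TAC heart 4.

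Dio2, an enzyme that makes the active thyroid hormone, rose and had 3408, 4314, 928 and 3275 normalized counts in WT TAC hearts, against 70.4, 67.5, 33.4 and 44.5 in WT sham hearts (log2 fold change 5.62 ± 0.65 SE, adjusted p = 3.5e-05). Dio3, which inactivates it, had 64.2, 213, 25.4 and 503 normalized counts in WT TAC hearts, against 0, 0, 0 and 0 in WT sham hearts, so no fold is given against a group listed at 0. It passed the filter only through the TAC hearts among the WT hearts, so its test is not given. Of the 9 tested thyroid hormone genes 3 were called higher, Dio3 included, and 4 lower.

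Further protein-coding DEGs had large changes, among them Cthrc1 of the activated fibroblast list and others that belong to no pathway list. Among those that rose, Serpinb1c, a serine protease inhibitor, was 523 to 945 in WT TAC hearts, against 6.87 to 16.2 in WT sham hearts (log2 fold change 5.98 ± 0.48 SE, adjusted p = 5.9e-06). Cplx3, a complexin of synaptic vesicles, was 38.4 to 713 in WT TAC hearts, against 0 to 1.29 in WT sham hearts. Cthrc1, a collagen triple helix repeat protein, was 107 to 517 in WT TAC hearts, against 0 to 8.47 in WT sham hearts. Among the WT hearts Cplx3 and Cthrc1 passed the filter only through the TAC hearts, so their tests are not given. The Cthrc1 row is repeated exactly under another identifier, so its counts may have been split between identical transcripts. Among those that fell, Ces1d, a carboxylesterase that hydrolyses stored lipid, had 490.5, 182, 1845 and 109 normalized counts in WT TAC hearts, against 7225, 6957, 7789 and 9011 in WT sham hearts (log2 fold change -4.39 ± 0.76 SE, adjusted p = 5.1e-04). TAC heart 3 held the highest of the TAC values and was still below every sham. Aqp4, a water channel, was 0 to 25.9 in WT TAC hearts, against 174 to 345 in WT sham hearts (log2 fold change -5.05 ± 0.74 SE, adjusted p = 1.5e-04). Clcn1, a skeletal muscle chloride channel, was 5.75 to 83.6 in WT TAC hearts, against 342 to 552 in WT sham hearts (log2 fold change -3.94 ± 0.61 SE, adjusted p = 2.2e-04). Penk, proenkephalin, was 6.68 to 103 in WT TAC hearts, against 318 to 476 in WT sham hearts (log2 fold change -3.93 ± 0.66 SE, adjusted p = 4.0e-04). The kinase genes Sbk2 (-3.62 ± 0.54, adjusted p = 1.7e-04) and Sbk3 (-3.75 ± 0.40, adjusted p = 2.5e-05) fell as well. Retnla, a marker of alternatively activated macrophages, was 6.91 to 44.7 in WT TAC hearts, against 210.2 to 335 in WT sham hearts (log2 fold change -3.94 ± 0.58 SE, adjusted p = 1.6e-04).

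Marker genes of the cell types in the heart were read beside these lists. Cardiomyocyte markers had 7 of 10 lower and none higher, and their summed normalized counts were 1848935 to 3386928 in WT TAC hearts, against 3942096 to 4605329 in WT sham hearts. All 10 of them passed the filter. Apart from Mb, all are also members of the sarcomere, calcium cycling or phosphotransfer lists, so they move with those lists by construction. The sum includes Myh6, which fell as Myh7 rose. The share of cardiomyocytes in each heart was not measured. Endothelial markers summed to 82933 to 91859 in WT TAC hearts, against 88903 to 93276 in WT sham hearts, with 1 of 12 higher, Vwf (0.78 ± 0.22, adjusted p = 0.011), and 1 lower, Kdr (-0.69 ± 0.22, adjusted p = 0.022). Macrophage markers had 6 of 14 higher, among them C1qa (0.92 ± 0.13, adjusted p = 1.2e-04), Csf1r (0.58 ± 0.09, adjusted p = 1.9e-04) and the monocyte receptor Ccr2 (1.14 ± 0.22, adjusted p = 0.0011), and 2 lower, Retnla and the resident macrophage gene Timd4 (-1.09 ± 0.38, adjusted p = 0.036). The Timd4 and Kdr calls sat at the threshold and were lost in 8 and 5 of 26 alternatives, with adjusted p of 0.0096 to 0.12 for Timd4 and 0.0023 to 0.07 for Kdr. The macrophage markers summed to 23342 to 26679 in WT TAC hearts, against 17041 to 18892 in WT sham hearts. Pericyte and smooth muscle markers had 5 of 12 higher and 2 lower, with a median log2 fold change of -0.18. Cspg4 (1.42 ± 0.17, adjusted p = 4.7e-05) and Des, also in the cytoskeleton list, were among the higher ones. Abcc9 (-1.28 ± 0.24, adjusted p = 9.1e-04), also in the potassium channel list, was among the lower ones.

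Neutrophil markers were rare, with a sum of 400.0 to 690.0 in WT TAC hearts, against 190.1 to 459.7 in WT sham hearts, and 3 of 5 tested were higher. No tested T and NK cell, B cell, adipocyte or red cell marker was called in either direction. Only 2 of 6 adipocyte markers were tested, and the list summed to 21.0 to 68.2 in WT TAC hearts, against 38.5 to 74.1 in WT sham hearts. T and NK cell markers, 8 of 9 tested, summed to 114 to 267 in WT TAC hearts, against 159 to 254 in WT sham hearts. Both cell types were thus measured by few counts. Red cell markers summed to 46879 to 115226 in WT TAC hearts, against 49522 to 73047 in WT sham hearts, the highest value being TAC heart 4. That heart also had the highest level of the mesothelial gene Msln, with 1.39, 1.24, 11.1 and 277 normalized counts in WT TAC hearts, against 37.4, 58.3, 48.1 and 72.8 in WT sham hearts (log2 fold change -2.21 ± 1.23 SE, adjusted p = 0.18). Its Upk3b level was also the highest, with 4.27, 1.90, 2.39 and 96 normalized counts in WT TAC hearts, against 61.2, 22.5, 47.9 and 80.2 in WT sham hearts (log2 fold change -2.54 ± 0.99 SE, adjusted p = 0.058). The 7 epicardial and mesothelial markers had 1 lower and none higher. The part of such tissue in the values of TAC heart 4 was not tested. Without that heart the log2 fold change was -3.74 for Msln and -3.72 for Upk3b. The heart left out was the highest for both genes, so larger falls without it follow by construction. Among the WT hearts left, both genes passed the filter only through the sham hearts, so their tests without TAC heart 4 are not given. Over all tested genes 906 were higher DEGs and 685 were lower ones without TAC heart 4. Of 9 atrial cardiomyocyte markers only 6 passed the filter, with 2 of them lower, Kcnj3 and Stard10, and none higher. The 9 markers summed to 1225 to 3092 in WT TAC hearts, against 5795 to 6202 in WT sham hearts. Kcnj3 alone was 376 to 1748 in WT TAC hearts, against 4027 to 4667 in WT sham hearts and made up most of the sham sum. The share of atrium in each tube was not measured.

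The same operation in SIRT5OE mice was compared with that in WT mice by the interaction of TAC and genotype, which asks whether the TAC change differs between them. Sirt5 itself had 43932, 30432, 32512 and 35703 in SIRT5OE TAC hearts, against 38589, 41951 and 42058 in SIRT5OE sham hearts, above the 8 WT hearts. No gene had an interaction at an adjusted p under 0.05 in limma, the smallest being 0.27, and 2206 genes, 13.2% of those tested, had an unadjusted p under 0.05. Without WT TAC heart 3 there were 45 genes at an adjusted p under 0.05, and without SIRT5OE TAC heart 1 there was 1. In SIRT5OE hearts 831 genes were called between TAC and sham, where 7 hearts and not 8 were compared. For genes above, the SIRT5OE log2 fold change was 3.65 ± 0.62 SE for Nppa, 5.03 ± 0.29 for Acta1, 2.16 ± 0.53 for Myh7, 3.54 ± 0.52 for Postn, -0.60 ± 0.27 for Atp2a2 and -0.51 ± 0.15 for Acadm, and none of these differed from the WT change after adjustment.

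The 8 genes with the smallest interaction p were Gm17428, Ttc41, Nnt, Spata33, Dio3, Cxcl2, Rps13-ps2 and Lactb2, with adjusted p of 0.27 or more. In WT hearts Nnt, the mitochondrial transhydrogenase that supplies NADPH, had 12572, 10473, 12851 and 9342 normalized counts in WT TAC hearts, against 23818, 19585, 25416 and 22170.3 in WT sham hearts (log2 fold change -1.01 ± 0.14 SE, adjusted p = 1.1e-04). These values are of the more abundant of the 2 identifiers that the table gives this symbol. Its SIRT5OE log2 fold change was 0.13 ± 0.15 SE. The chemokine Cxcl2 had 44.8, 41.9, 34.5 and 52.9 normalized counts in WT TAC hearts, against 6.08, 13.9, 2.95 and 5.35 in WT sham hearts (log2 fold change 2.62 ± 0.48 SE, adjusted p = 7.6e-04), against a SIRT5OE log2 fold change of -0.78 ± 0.52 SE. The predicted gene Gm17428 had 8.19, 2.56, 6.89 and 3 normalized counts in WT TAC hearts, against 78.2, 107, 262 and 208 in WT sham hearts (log2 fold change -4.70 ± 0.52 SE), with -0.12 ± 0.57 SE in SIRT5OE hearts. Among the WT hearts it passed the filter only through the sham hearts, so its WT test is not given. Ttc41 fell in WT hearts (log2 fold change -1.54 ± 0.18 SE, adjusted p = 4.5e-05), as did Spata33 (log2 fold change -0.85 ± 0.13 SE, adjusted p = 2.6e-04) and the mitochondrial nuclease gene Lactb2 (log2 fold change -0.78 ± 0.15 SE, adjusted p = 9.0e-04). The pseudogene Rps13-ps2 had 21.8, 0, 0 and 0 normalized counts in WT TAC hearts, against 16.8, 93, 314 and 103 in WT sham hearts. Its reads may be shared with the parent ribosomal gene and near-identical copies, so its value is uncertain.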

How the data were processed

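RNA was sequenced from 15 mouse hearts after ribosomal RNA depletion, and the hearts were grouped by the genotype and surgery in their labels. Per the study's methods, the authors estimated transcript abundance with kallisto against Ensembl mouse cDNA, summed it to genes with tximport and scaled it with DESeq2. Their processing notes name kallisto 0.43.1 and mm10. The deposited signal values are these normalized counts per gene. They are not whole reads, so a count test could not be used and limma was used on log2(value + 1), on genes with at least 10 in at least 3 hearts, with 1 mean for each of the 4 groups, a trended prior variance and Benjamini-Hochberg adjustment. The spread was estimated from all 15 hearts. A few single values were compared by 2-sided exact permutation tests. The members and gene lists were chosen with earlier results of these data known. They hold 1152 genes in 48 pathway and 14 marker lists, of which 1123 were tested.

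Named genes followed a rule: the 15 protein-coding DEGs each way that changed most, without overlap between groups and with a mean of at least 100, up to 6 members of each list (the 3 smallest adjusted p and the 3 largest changes), genes the study names, 8 interaction genes and the isoform pairs. Of these, the text gives a selection made after the values were seen. Where a symbol had several identifiers, that on the primary assembly was used. There were 184 tested rows, 27 of them DEGs, that repeated the values of another row exactly. Versions were R 4.3.3, limma 3.58.1, Python 3.11.15 and scipy 1.17.1. Scripts were tested on simulated data. Promoter windows came from RefSeq, GRCm38.p6.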

Additional observations from a re-analysis of the deposited data

Results flagged for a closer look

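In each group of 4 hearts, the gap between the most distant heart and its nearest neighbour was divided by the range of the group, and a ratio above Dixon's critical value for 4 values was taken as a heart far from the others. For the named genes 354 such groups were looked at, and chance gives about 1 in 20, which is close to the number found. In WT TAC hearts, heart 3 lay far above the others for Adra1a (0.88), Kcnd2 (0.835) and Nampt (0.838), all genes that were lower after TAC, and far below them for Pi16 (0.832), which was higher. Heart 4 lay far above the others for Msln (0.964) and Upk3b (0.975), and heart 1 for Rps13-ps2 (1), which was listed at 0 in the other 3 TAC hearts.

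In WT sham hearts, heart 1 stood apart for Comp (0.912), Hbegf (0.832), Hspa1a (0.867) and Slc6a8 (0.875), above the others each time. Sham heart 2 was highest for Col3a1 (0.903). Sham heart 3 was lowest for Col8a1 (0.94), Kdr (0.91) and Pdgfra (0.857) and highest for Lcn2 (0.857) and Nampt (0.836). Sham heart 4 was highest for Atp2a2 (0.891), Cpt1a (0.929) and Dbt (0.919). In each of these genes except Hspa1a and Kdr the distant sham heart stayed outside the range of the TAC hearts.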

How the results depend on the processing

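Of the 173 named genes that were called, 164 kept their direction and call under all 26 alternatives. The higher DEGs numbered between 890 and 1203 over other pseudocounts, filters, scalings and models, and the lower ones between 640 and 893. Leaving out 1 heart at a time gave 906 to 1314 higher and 667 to 1090 lower DEGs, the most without WT TAC replicate 3. The interaction count was 0 to 45 in these fits. Scaling to the sum of nuclear genes moved the share of higher among DEGs to 62.1%, against 57.1%. Leaving out single hearts moved Actc1, which was not called, between -0.21 and 0.052, and it was 0.18 with array weights and 0.25 with quantile normalization. The Cpt1a share difference lay between -0.39 and 0.55 percentage points.

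With single hearts left out, the exact tests cannot go below p = 0.057, so their calls could not be kept. The differences in percentage points were -12.7 to -10.2 for the mitochondrial share, 38.5 to 58.1 for Myh7, 32.5 to 35.3 for Acta1, 0.0263 to 0.0395 for Tnni1, 9.92 to 20.1 for Slc2a1, 13.7 to 20.5 for Hk1 and 20.6 to 27.0 for Ldha. The distance between groups on the first axis was 67.5, and was 112 with all tested genes and 28.5 with genes at unit variance, which are other scales. With genes of mean 100 or more the median SD was 0.237 in WT TAC and 0.136 in WT sham hearts.

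Among the lists, ribosomal proteins had 9 higher, 18 with nuclear scaling and 3 without WT TAC heart 4. Mitochondrially encoded genes had 12 lower, 6 with no filter and 4 with quantile normalization. Glycolysis had 11 higher, 7 without WT TAC heart 4 or WT sham heart 2. Growth factors had 16 higher, 10 without WT TAC heart 4 or WT sham heart 3. Heat shock genes had 8 higher, 5 with array weights. Angiotensin and endothelin genes had 5 lower and 3 in 8 alternatives. Replicate numbers do not pair the hearts (correlations of deviations between same-numbered WT TAC and WT sham hearts of -0.0046 to 0.027). Adding the replicate number as a blocking term gave 1071 higher and 806 lower DEGs and changed the call of 1 named gene, Timd4. The depth of each heart is unknown from these values, which limits what can be said of genes near 0.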
